A study of Mus musculus with 29 samples.

Results

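The genes described here encode proteins of the red cell membrane and carriers of blood group antigens: Epb42, Slc4a1, Ank1, Rhag, Rhd, Kel, Ermap and Epb41. They were found by symbol, as the array's probe sets annotated to exactly 1 of these 8 symbols. This gave 12 probe sets for 7 genes, out of 12394 genes on the array, and Epb41 is not analysed here. Where a gene had several probe sets, its brightest one in a tissue stands for it. Expression was measured on 29 arrays of total RNA from mouse bone marrow (15 arrays) and spleen (14 arrays), in a model in which the leukaemia fusion MLL-ENL is joined to ERtm, a mutated hormone-binding domain of the oestrogen receptor, and so depends on tamoxifen. All mice, wild type included, ate tamoxifen chow (300 mg/kg). The MLL-ENL-ERtm marrow comprised 4 arrays in proliferation (7 months of tamoxifen, much division and little DNA damage response signalling), 4 in transition towards senescence (7 to 8 months, less division and strong signalling) and 3 in senescence (8 months), beside 4 wild-type arrays (7 or 8 months). The MLL-ENL-ERtm spleens comprised 3 arrays of the early disease stage (7 months), 3 of progression (1 after 9 months and 2 after 10) and 3 of the terminal stage (19, 21 and 23 months), beside 5 wild-type arrays (8, 9, 11, 11 and 24 months). The labels call the arrays of a group biological replicates and describe the RNA as coming from primary cells. The promoter that drives the fusion, the strain, the sex and the age of the mice are not given in the sources used here.

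A red cell keeps its shape because its lipid membrane is tied to a net of spectrin and actin. Ank1 (ankyrin) links spectrin to the anion exchanger band 3, which is encoded by Slc4a1 and also carries blood group antigens, and the product of Epb42 stabilises that link. Rhag and Rhd form the Rh complex, Kel carries the Kell antigens, and Ermap, named for erythroblast membranes, carries the Scianna antigens. Mouse bone marrow makes red cells throughout life, and the mouse spleen also holds red cell precursors, so both tissues normally contain these transcripts.

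In spleen all 7 measured genes were lower at the terminal stage than in wild type, by 2.58-fold for Slc4a1 to 10.7-fold for Epb42. The terminal arrays did not overlap with any other spleen array. The share of all genes without such overlap is not given, here or where overlap is described below. Nor is it given for the counts of genes in which 1 array was the lowest or highest. The 7 genes went up and down together, so these counts are not independent of each other. Neither the early stage nor progression differed from wild type by the test in any of the 7, each read by its brightest probe set. In marrow the 7 genes had their highest mean in wild type and their lowest in transition, but arrays of 1 group spread so widely that no difference passed the test. These are bulk samples, in which fewer cells of a type and less RNA per cell cannot be told apart.

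The DNA before the transcription starts of these genes was searched for short motifs, and no link to their levels was tested. RefSeq sequence of the build GRCm38.p6 was at hand for Epb42, Ermap, Kel, Rhag and Rhd, and for Epb41. In the 250 bases before the annotated start, all 5 of these measured genes held GATAA on 1 of the strands (TTATC on the printed strand when it lay on the other), the core letters bound by GATA factors. Of all 32851 windows of that length, 22.6% held it. CACCC on either strand (printed as GGGTG when on the other), the core letters bound by KLF1 and related factors, stood in the windows of Ermap, Kel, Rhag and Rhd but not in that of Epb42, against 52.0% of all windows. Those same 4 windows held both motifs, against 10.1% of all windows. An earlier start is annotated 50 bases before the one used here for Rhag, 18 for Ermap and 9 for Kel. The only GATAA match of Rhag (31 to 27 bases before the start used) and the only CACCC match of Kel (5 to 1) lie downstream of it. The counts above include both of these matches. None of the 3 windows of Epb41 held either motif. These are matches of letters in a window, and no binding was measured. The motifs share no letters with each other in the runs printed here. For Kel, Ermap and Rhd a GATAA match lay within the 130 bases before the outermost annotated start. Those bases are shown, read 5′ to 3′ on the strand of the gene, with motif letters in capitals.
Kel: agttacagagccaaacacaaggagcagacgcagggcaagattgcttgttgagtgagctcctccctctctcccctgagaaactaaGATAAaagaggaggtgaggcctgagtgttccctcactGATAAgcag
Ermap: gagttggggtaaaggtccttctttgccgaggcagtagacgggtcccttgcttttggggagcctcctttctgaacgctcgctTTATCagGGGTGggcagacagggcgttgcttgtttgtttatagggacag
Rhd: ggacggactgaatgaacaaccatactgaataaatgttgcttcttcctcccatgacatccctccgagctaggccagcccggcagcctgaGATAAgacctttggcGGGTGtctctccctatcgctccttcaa
The Kel run is chr6:41704335-41704464 on the minus strand, and its GATAA matches lie 18 to 14 and 55 to 51 bases before the annotated start of the window. The Ermap run is chr4:119190014-119190143 on the minus strand, where TTATC and GGGTG lie 67 to 63 and 60 to 56 bases before it. The Rhd run is chr4:134864406-134864535 on the plus strand, with GATAA 42 to 38 and GGGTG 27 to 23 bases before it. In Rhag the GATAA match lay 31 to 27 bases before the start used, downstream of the outermost start. In Epb42 it lay 226 to 222 bases before the start, farther than 130. Both matches are outside runs of this kind, so these are not shown.

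All levels that follow are RMA values, probe set summaries on the log2 scale, and were compared only within a tissue and a probe set. The median level of an array lay near 8 in marrow (8.11 to 8.29) and near 7 in spleen (6.73 to 6.90), which shows that the arrays of both tissues were not put on 1 scale. Every level of the 7 genes lay above the lower quartile of its array, which was 6.13 to 6.32 in marrow and 4.56 to 4.81 in spleen. A mean over pancreas acinar markers (4 of 5 measured) was 12.5, 8.01 and 8.74 in wild-type spleen 3 and 5 and early spleen 1, against 6.24 to 6.79 in the other spleen arrays. In proliferation marrow 1 the mean of 5 adipocyte and muscle markers was 3.51 above the wild-type mean. Defining markers of the labelled tissues were present: the mean of 5 measured B cell markers was 9.79 to 10.2 in wild-type spleen and that of 6 neutrophil markers 14.8 to 14.9 in wild-type marrow. Gapdh, read by control probe sets at both ends of its transcript, had a 3′ minus 5′ difference of 1.18 to 2.06 over the marrow arrays and of no more than 1.07 over the spleen arrays. The labels do not say whether some marrow and spleen arrays come from the same mice. P-values set a group difference against the spread between arrays within groups, which limma pools over the groups of a fit and moderates across genes.

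The question in spleen was how the genes differ across the stages of the disease. Epb42 measured 9.81, 10.69, 10.64, 10.45 and 10.41 in the 5 wild-type spleens, with a mean of 10.40 ± 0.35 (SD, n = 5). At the early stage its levels were 9.80, 9.98 and 10.31, in progression 9.95, 9.54 and 10.17, and at the terminal stage 7.11, 6.80 and 7.02. The 3 terminal arrays lay together and far below the other 11, among which the groups overlapped. The terminal level was lower than wild type by 10.7-fold, a log2 difference of -3.42 ± 0.20 (SE, limma adjusted p = 8.97e-08). Epb42 thus had the largest terminal difference of the 7 genes, although differences between genes were not tested.

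Its partners in the link from the membrane to spectrin fell as well. Slc4a1 measured 13.71, 13.60, 13.64, 13.69 and 13.51 in wild-type spleen and 12.39, 12.14 and 12.25 at the terminal stage. Its early levels were 13.91 in each of the 3 arrays, all above wild type, while those of progression (13.62, 13.35 and 13.75) fell on both sides. The other bright probe set of Slc4a1 had no such early rise, at 13.31 to 13.48 against 13.17 to 13.49 in wild type (0.02 ± 0.10, limma adjusted p = 0.944). The terminal level was lower than wild type by 2.58-fold (log2 difference -1.37 ± 0.11, limma adjusted p = 8.83e-07). Ank1 was 11.27, 11.21, 11.45, 11.38 and 10.81 in wild type, 11.62, 11.93 and 11.07 at the early stage, 11.45, 10.83 and 11.41 in progression, and 9.73, 8.74 and 9.81 at the terminal stage. Terminal spleen 2 was the lowest array for Ank1, and no terminal array reached the lowest of the others. The terminal difference from wild type was -1.79 ± 0.26 on the log2 scale, 3.47-fold lower (limma adjusted p = 0.000113).

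Both genes of the Rh complex fell at the terminal stage. Rhag, which encodes the glycoprotein that brings the Rh proteins to the membrane, measured 11.02, 11.50, 11.67, 11.41 and 11.30 in wild type, 11.11, 11.43 and 11.93 at the early stage, 11.02, 10.65 and 11.24 in progression, and 9.73, 9.54 and 10.09 at the terminal stage. The 3 terminal arrays were the lowest of the 14, and the early and progression arrays overlapped with wild type. Rhag was 3.02-fold lower than wild type at the terminal stage (log2 difference -1.60 ± 0.20, limma adjusted p = 3.89e-05). Rhd, the Rh antigen gene itself, measured 12.37, 12.31, 12.41, 12.33 and 11.98 in wild type, 12.46, 12.51 and 12.53 at the early stage, 12.23, 11.98 and 12.24 in progression, and 10.05, 9.23 and 10.25 at the terminal stage. The early arrays of Rhd lay above every wild-type and progression array, and the terminal arrays far below all of them. Its terminal level was 5.40-fold lower than wild type (log2 difference -2.43 ± 0.19, limma adjusted p = 7.71e-07).

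The remaining antigen carriers behaved alike. Kel, which encodes a membrane-bound peptidase, measured 10.67, 10.66, 10.87, 10.58 and 10.20 in wild type, 10.79, 11.15 and 10.82 at the early stage, 11.03, 10.51 and 10.61 in progression, and 8.95, 8.04 and 8.59 at the terminal stage. Terminal Kel was lower than wild type on the log2 scale by a difference of -2.07 ± 0.20 (limma adjusted p = 4.11e-06), with no overlap. Ermap, a membrane protein of the immunoglobulin superfamily, measured 11.91, 12.07, 12.14, 12.22 and 11.84 in wild type, 12.39, 12.67 and 11.82 at the early stage, 11.74, 11.58 and 12.09 in progression, and 10.57, 9.70 and 11.04 at the terminal stage. Its terminal arrays spread over more than 1 log2 unit, yet the highest of them lay below every other spleen array. The difference from wild type was -1.60 ± 0.26, 3.03-fold lower (limma adjusted p = 0.000256). Terminal spleen 2, from the mouse with 23 months of tamoxifen, was the lowest of the 14 arrays for 7 of 7 genes.

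**Figure D1:**
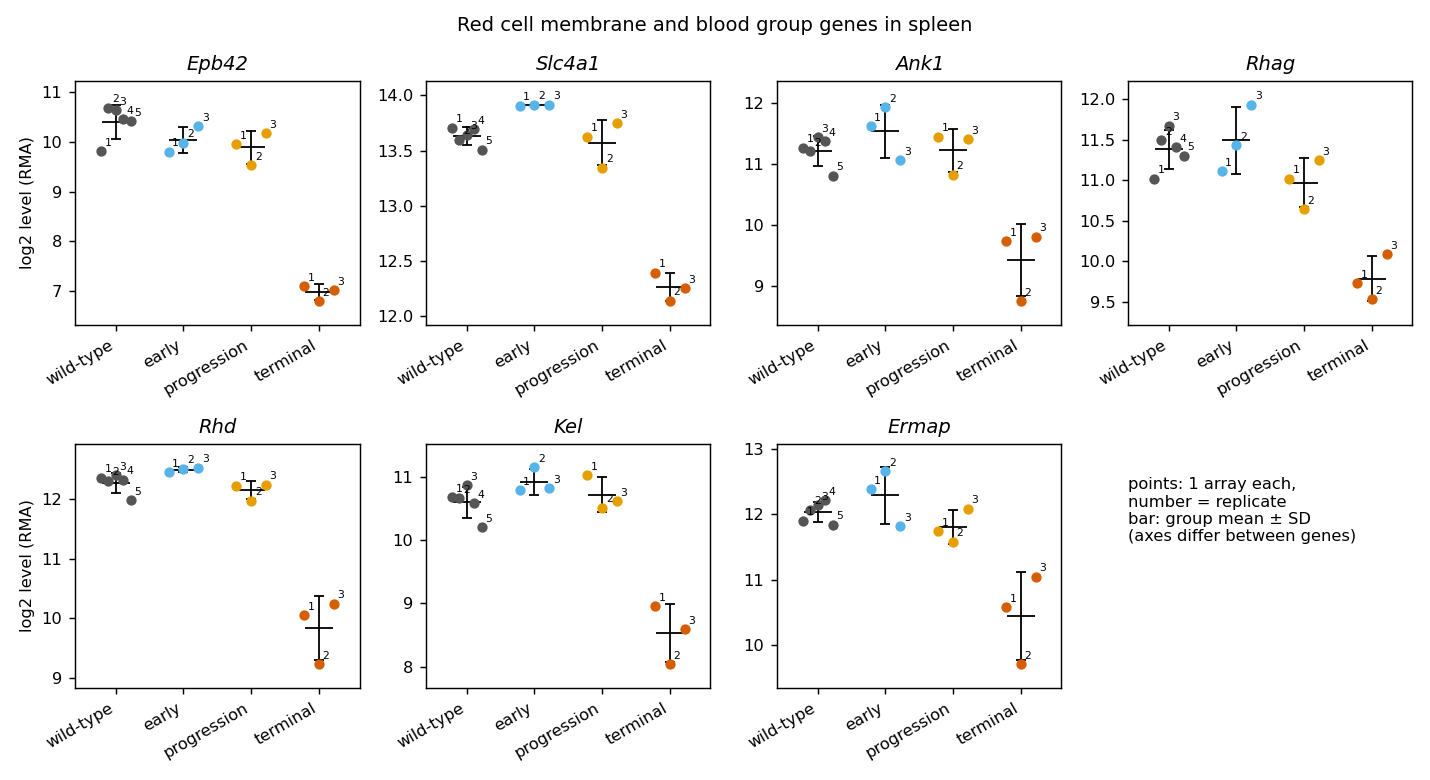
Levels (RMA, log2) of the 7 genes in the 14 spleen arrays by group, with 1 point per array, its replicate number beside it, and the group mean ± SD as a bar. The 3 terminal arrays sit below all others in every panel, for example at 6.80 to 7.11 against 9.54 to 10.69 for Epb42, and the early arrays of Rhd and of the brightest Slc4a1 probe set sit above wild type.

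The test gave 7 of 7 genes lower at the terminal stage than in wild type, where 16.3% of all genes were called lower, and the median difference of the 7 was -1.79 (0.04 over all genes). Against the early stage 7 of 7 were lower too, with 3.88% of all genes called lower and a median of -2.11. The differences from early were -3.06 for Epb42, -1.65 for Slc4a1, -2.11 for Ank1, -1.71 for Rhag, -2.66 for Rhd, -2.39 for Kel and -1.85 for Ermap (limma adjusted p from 9.32e-07 to 0.00106). Against progression 7 of 7 were lower, with 3.3% of all genes called lower and a median of -1.80. These differences ran from -1.18 ± 0.23 for Rhag to -2.91 ± 0.22 for Epb42 (limma adjusted p from 2.69e-06 to 0.0143). The 3 comparisons share the terminal arrays, so they are not independent of each other. Ermap was the gene nearest to the threshold: with the fit limited to the groups compared, its adjusted p by limma was 0.0577 against early and 0.0814 against progression. The terminal mice had received tamoxifen for 19 to 23 months. The 1 wild-type spleen with a like duration (24 months) had a mean over the 7 genes of 11.54. That lay within the 11.44 to 11.83 of the other wild-type spleens, and the terminal arrays had 9.17 to 9.86. Gene by gene, this array was the lowest wild type for Epb42 (9.81 against 10.41 to 10.69) and Rhag (11.02 against 11.30 to 11.67). It was the highest for Slc4a1 (13.71 against 13.51 to 13.69) and lay between the others for Ank1, Rhd, Kel and Ermap. In the fusion spleens duration went together with stage, and its part was not tested.

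Before the terminal stage the genes of this group stood near wild type. In early spleen 0 of 7 passed the test, where 15.9% of all genes did, 1 had an unadjusted p under 0.05 by limma, and 6 had a mean above wild type. The median difference was 0.26, against 0.03 over all genes, and 0.14 without early spleen 2. Slc4a1 had the smallest p of them (0.28 ± 0.11, 95% interval 0.06 to 0.51, limma adjusted p = 0.0897). Its call turned on the processing, since a fit of early and wild-type arrays alone gave an adjusted p of 0.0467, and the other bright probe set did not show the difference. Epb42 was the 1 gene with a lower early mean, -0.37 ± 0.20 (95% interval -0.80 to 0.06), and it passed without wild-type spleen 1. The early intervals of the other 5 genes all included 0 and reached from -0.32 for Rhag to 0.87 for Ank1. With all 3 probe sets of Ank1 averaged, its early difference was 0.65 ± 0.13 and passed (limma adjusted p = 0.00447), beside 0.32 ± 0.26 for the brightest one.

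In progression 0 of 7 passed, where 19.3% of all genes did, 1 had an unadjusted p under 0.05 by limma, and the median was -0.13 (0.04 over all genes), which was -0.04 without progression 2 and -0.20 without wild-type spleen 5. Epb42 was at -0.51 ± 0.20 (95% interval -0.94 to -0.08, limma adjusted p = 0.0887) and Rhag at -0.41 ± 0.20 (-0.85 to 0.02), and the other 5 differed from wild type by -0.23 to 0.12. Epb42 passed in progression when progression 3 or wild-type spleen 1 was left out. Slc4a1, at -0.06 ± 0.11 by its brightest probe set, was at -0.63 ± 0.19 and passed with its 3 probe sets averaged (limma adjusted p = 0.0351). That average takes in a dim probe set, at 4.18, 4.19 and 6.02 in progression. Between progression and early 0 of 7 genes passed by limma, and 0% of all genes did, with an unadjusted p under 0.05 for 2 of the 7 and for 910 of all genes. All 7 means were lower in progression than at the early stage, with log2 differences of -0.52 to -0.15, and the arrays of Slc4a1 and Rhd did not overlap, although those of the other bright Slc4a1 probe set did. By the brightest probe sets, the order of the 4 group means was early, wild type, progression, terminal for Slc4a1, Rhag, Rhd and Ermap. For Ank1 and Kel progression came before wild type, and for Epb42 wild type came first. In each of these orders the neighbours above the terminal group overlapped, except for early over wild type in Slc4a1 and Rhd. With the 3 stages averaged, 5 of 7 genes were lower than wild type (16.4% of all genes called lower): Epb42 (-1.43), Slc4a1 (-0.38), Rhag (-0.63), Rhd (-0.78) and Kel (-0.54), while Ank1 (-0.49, limma adjusted p = 0.0733) and Ermap (-0.52, limma adjusted p = 0.0535) did not pass. Ank1 passed without early spleen 2 or terminal spleen 3 and with the Gapdh difference as a covariate. Ermap passed under each of these, without progression 3, and with only the brighter genes tested. Without the 3 spleen arrays with pancreas signal, 3 of 7 passed, Rhag and Kel no longer among them.

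The marrow comparison asked how the genes differ between the states from proliferation to senescence. Epb42 measured 11.55, 11.13, 12.43 and 12.96 in wild-type marrow, 10.06, 11.34, 11.87 and 12.03 in proliferation, 12.15, 11.10, 10.56 and 8.32 in transition, and 10.89, 11.87 and 11.17 in senescence. Transition 4 was the lowest array by far, transition 1 was among the higher ones, and all groups overlapped. The transition mean of 10.53 ± 1.61 (SD, n = 4) stood against 12.02 ± 0.83 (SD, n = 4) in wild type, a difference of -1.48 ± 0.67 (95% interval -2.91 to -0.06, limma adjusted p = 0.462). Its own interval left out 0, but by p it ranked 1139 among all genes and did not pass.

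Slc4a1 measured 14.40, 13.91, 14.70 and 14.94 in wild type, 13.46, 14.25, 14.52 and 14.55 in proliferation, 14.60, 14.21, 13.69 and 11.99 in transition, and 13.81, 14.46 and 14.30 in senescence. Kel measured 11.03, 11.14, 12.65 and 12.58 in wild type, 10.39, 11.26, 11.93 and 12.11 in proliferation, 12.33, 11.28, 10.66 and 8.15 in transition, and 10.71, 11.92 and 11.19 in senescence. Rhd measured 13.33, 12.67, 14.24 and 14.47 in wild type, 11.85, 13.17, 13.81 and 13.89 in proliferation, 13.91, 13.17, 12.21 and 10.52 in transition, and 12.36, 13.51 and 13.46 in senescence. In each of these genes the same arrays were high and low as for Epb42. Rhag ranged from 11.11 to 12.85 in wild type and from 9.03 to 12.40 in transition. Ank1 ranged from 11.00 to 12.39 and from 9.57 to 12.32, and Ermap from 12.65 to 14.24 and from 10.15 to 13.59. The pattern across arrays was thus shared by structural proteins and antigen carriers.

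**Figure D2:**
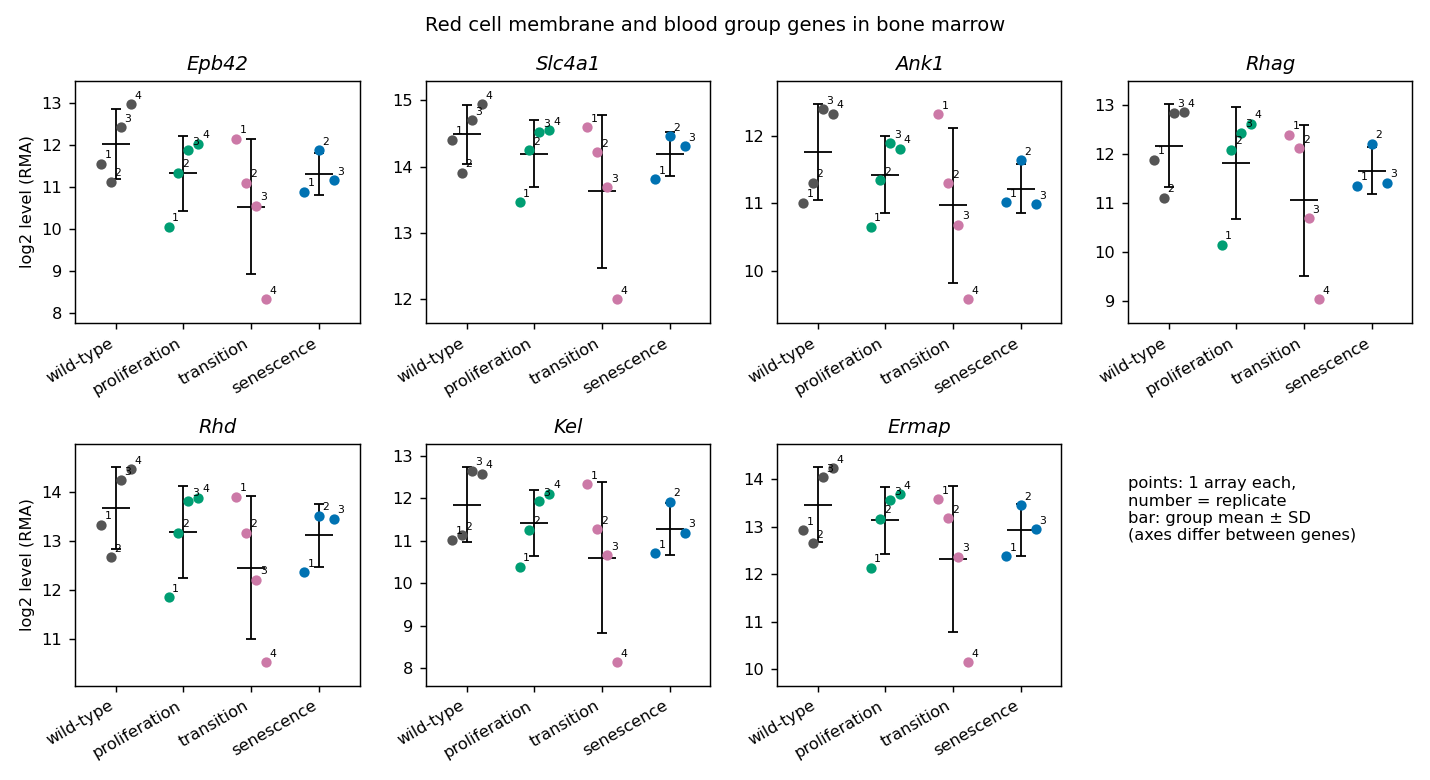
Levels (RMA, log2) of the 7 genes in the 15 marrow arrays by group, with 1 point per array, its replicate number beside it, and the group mean ± SD as a bar. Transition 4 is the lowest array in every panel, at 8.32 for Epb42, and the groups overlap throughout.

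Transition 4 was the lowest and proliferation 1 the second lowest of the 15 marrow arrays for 7 of 7 genes, and transition 3 came next for all 7. Wild-type marrow 3 and 4 were the 2 highest for each gene. The order of the group means was wild type, proliferation, senescence, transition for all 7 genes, with no neighbours that differed beyond their spread. In transition 0 of 7 genes passed against wild type (0.42% of all genes called), with differences of -0.79 for Ank1 to -1.48 for Epb42, an unadjusted p under 0.05 by limma for Epb42 alone, and a median of -1.14 (0.04 over all genes). Without transition 4 that median was -0.43. In proliferation 0 of 7 passed (0.282% called), with a median of -0.35, which ran from -0.66 without wild-type marrow 2 to -0.05 without proliferation 1 and moved by over 1.5 times when any array but proliferation 2 was left out. In senescence 0 of 7 passed (0.0484% called), with a median of -0.54, which was -0.29 without senescence 1, -0.33 without wild-type marrow 3 and -0.30 without wild-type marrow 4. Over the 3 states averaged 0 of 7 passed (0.662% called), with a median of -0.67, which was -0.43 without transition 4 and also without wild-type marrow 4. Between the 3 fusion states, 0 of 7 genes and 0% of all genes passed in each comparison by limma. In none of the marrow comparisons but transition against wild type did a gene of the 7 have an unadjusted p under 0.05, and 125 to 380 of all genes had one between the states. The comparisons with wild type share the same 4 control arrays.

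The intervals show how little these marrow data fix. For transition against wild type the 95% interval was -1.81 to 0.08 for Slc4a1, -2.61 to 0.16 for Rhd and -2.76 to 0.27 for Kel, so that a fall as large as the same gene's terminal fall in spleen is within each, as it is for Ank1 (-1.83 to 0.25), Rhag (-2.59 to 0.36) and Ermap (-2.47 to 0.18). For Epb42 the interval of -2.91 to -0.06 leaves out its terminal difference of -3.42. Arrays of a marrow group differed with a residual SD of 0.71 for Slc4a1 to 1.14 for Kel, where the median gene had 0.25. In spleen the residual SD was 0.12 for Slc4a1 to 0.40 for Ank1, with 0.21 for the median gene. Group membership accounted for 16.0% to 25.6% of a gene's variance in marrow (18.5% for the median gene) and for 80.7% to 97.2% in spleen (46.4% for the median gene).

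**Figure D3:**
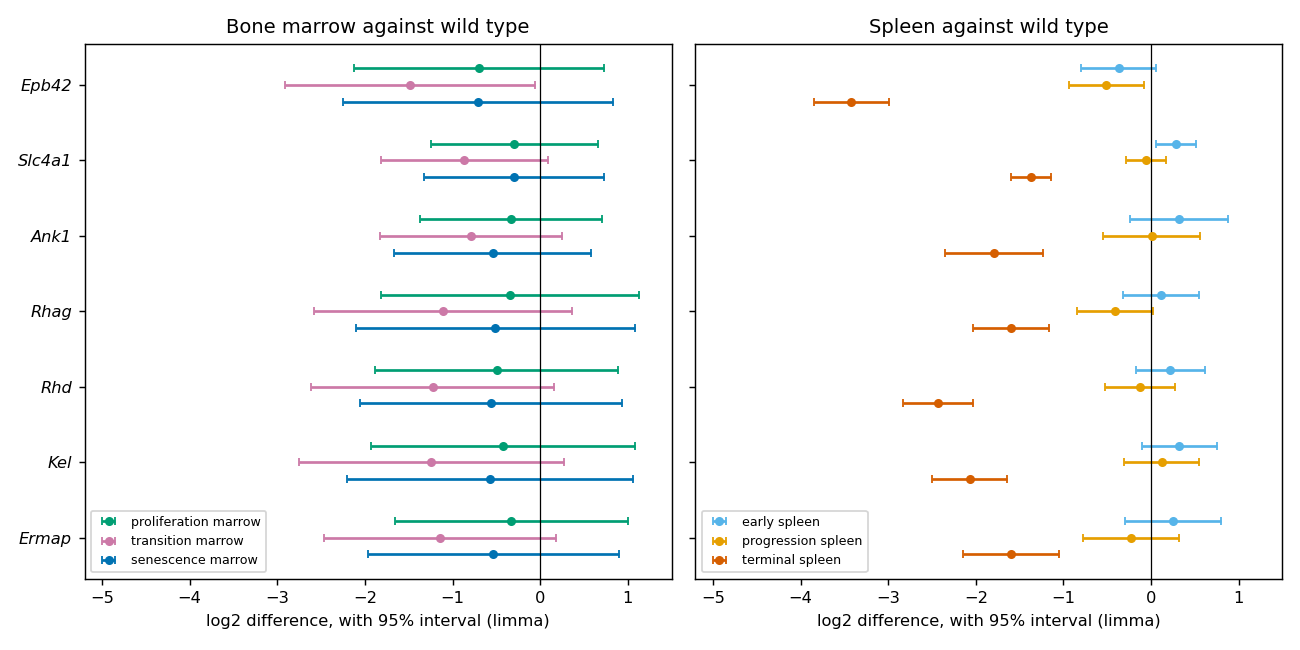
Log2 differences from wild type for the 7 genes with their 95% intervals from limma, marrow states on the left and spleen stages on the right. The terminal spleen intervals lie wholly below 0, from -3.85 to -3.00 for Epb42, while every marrow interval but that of Epb42 in transition (-2.91 to -0.06) includes 0.

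The effect of the fusion in spleen, averaged over stages, was also set against its effect in marrow, averaged over states. This contrast passed for 0 of 7 genes, where 14% of all genes passed, and 0 of 7 had an unadjusted p under 0.05 by limma. It was -0.47 ± 0.60 for Epb42 (95% interval -1.71 to 0.76), 0.10 ± 0.39 for Slc4a1 (-0.70 to 0.91) and 0.20 ± 0.63 for Kel (-1.10 to 1.51), with the other 4 genes at -0.02 to 0.14. These averages put the terminal stage together with the earlier stages, and the intervals are too wide to show that the tissues act alike.

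The 7 genes went up and down together from array to array. In marrow the 21 pairs had Pearson correlations of 0.906 (Slc4a1 and Ank1) to 0.988 (Kel and Ermap) over 15 arrays, and 0.901 to 0.986 after each group's mean was removed. In spleen they were 0.865 (Ank1 and Rhag) to 0.981 (Rhd and Kel) over 14 arrays, and 0.205 (Epb42 and Ank1) to 0.902 with group means removed. So in marrow the shared pattern lay within groups, whereas in spleen much of it was the terminal group against the rest. The points share their arrays, and the correlations are given as a description. Most like the mean of the 7 genes in marrow were Slc38a5 (r = 0.993, Spearman rho 0.986), Tal1 (0.989, 0.986), Aqp1 (0.988, 0.971), Cldn13 (0.988, 0.982) and Sox6 (0.988, 0.989). Tal1 and Sox6 encode transcription factors of red cell precursors, and Aqp1 encodes the water channel that carries the Colton antigens. Without the 2 arrays farthest from the median, transition 4 and wild-type marrow 4, these r were 0.972 to 0.986. In spleen the most alike were Cachd1 (r = 0.993, rho 0.903), Dnajb2 (0.992, 0.833), Tspan33 (0.992, 0.798), Icam4 (0.989, 0.771) and Gypc (0.989, 0.881), with r of 0.972 to 0.982 without terminal spleen 1 and 2. Terminal spleen 3 remained, at a mean of 9.86 over the 7 genes, where the non-terminal arrays had 11.20 or more. The latter r therefore cannot show likeness outside the terminal group. Icam4 and Gypc are themselves blood group genes, for the Landsteiner-Wiener and Gerbich antigens. Gene by gene, the closest in marrow were Aqp1 to Epb42, Hemgn to Slc4a1, Tspan33 to Ank1 and to Kel, Tlcd4 to Rhag, Cldn13 to Rhd and Tal1 to Ermap (r = 0.975 to 0.994). In spleen they were Map4k5 to Epb42, Fam210b to Slc4a1, Gypc to Ank1, Fam126a to Rhag, Dnajb2 to Rhd, Urod to Kel and Slc22a23 to Ermap (r = 0.981 to 0.994).

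**Figure D4:**
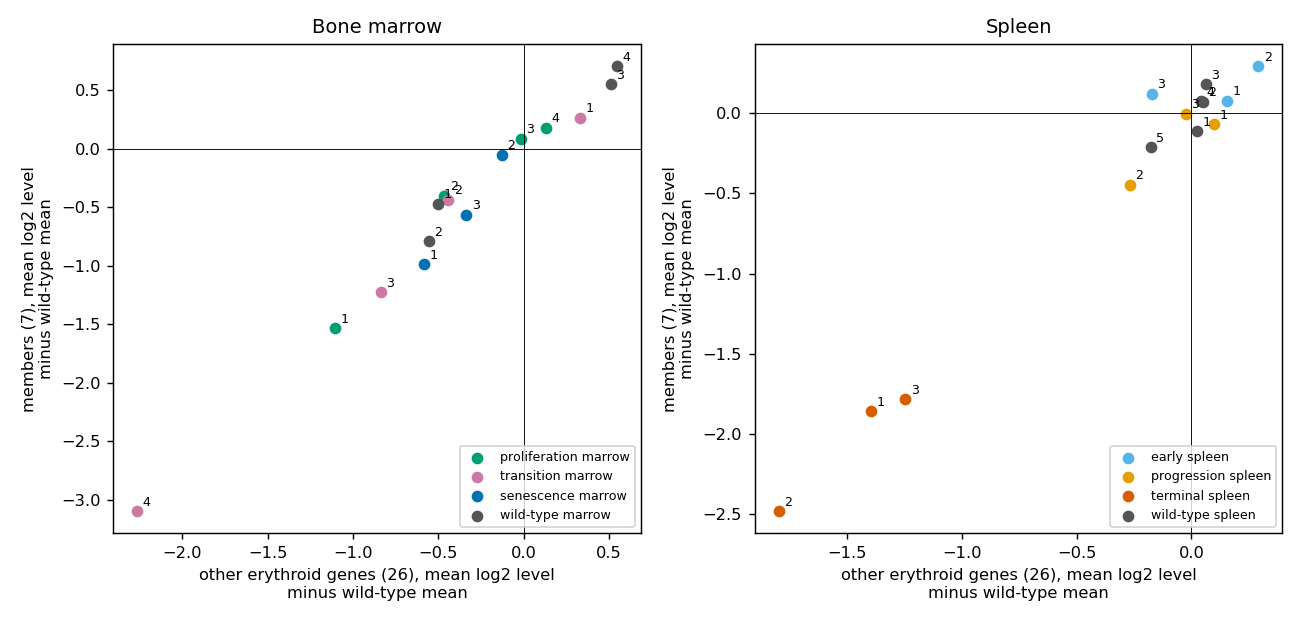
Mean log2 level of the 7 genes against that of 26 other erythroid genes, both minus the wild-type mean of the tissue, with 1 point per array and its replicate number. In marrow the arrays of all groups are strung along 1 line, down to transition 4 at -3.10 and -2.26, and in spleen the 3 terminal arrays lie apart from the others at -1.78 to -2.48 for the 7 genes.

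Other genes of the red cell membrane and of the blood groups were taken as a list of 28, of which 25 were measured. At the terminal stage 16 of the 25 were lower than wild type, 1 was higher and 8 did not pass, with a median of -0.80, where 16.3% of all genes were called lower and 18.1% higher. Tmod1, which caps the actin filaments of the membrane net, was lower by 9.31-fold (-3.22 ± 0.21, limma adjusted p = 1.9e-07). The Duffy antigen receptor Ackr1 was at -2.48 ± 0.18, Aqp1 at -2.31 ± 0.19 and Icam4 at -2.26 ± 0.18 (limma adjusted p from 6.21e-07 to 1.37e-06). Cd44, which carries the Indian antigens and is also made by many white cells, was the 1 gene that rose, by 0.77 ± 0.14 (limma adjusted p = 0.000549). Of the 25 genes, 1 rose and 3 fell in early spleen and 0 rose and 3 fell in progression, which is 16% and 12% of the list beside 15.9% and 19.3% of all genes called at these stages, so the count in early spleen is at the background and that in progression below it. The gene that rose at the early stage was Sptb (0.64 ± 0.16, limma adjusted p = 0.0164), the beta chain of spectrin. The 3 that fell at both stages were Cd55, the Cromer antigen and a complement regulator (-1.49 early and -1.84 in progression), Slc2a1, a glucose transporter (-1.01 and -1.42), and Tmod3 (-0.71 and -0.76), which are also expressed outside red cells. In marrow the list had 1 call in transition, Cd55 at -0.86 ± 0.17 (limma adjusted p = 0.0434), and 0 in proliferation and 0 in senescence. Of all genes 0.42%, 0.282% and 0.0484% were called in these states.

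Other erythroid genes, a list of 32 with 26 measured, cover haem synthesis, transcription factors and iron handling. At the terminal stage 22 of the 26 were lower than wild type, 0 were higher and 4 did not pass, with a median of -1.50. Of all genes 16.3% were called lower there. Trim10, a gene of late erythroblasts, was at -3.07 ± 0.14, and 3 enzymes of haem synthesis were at -3.07 ± 0.19 (Alas2), -2.18 ± 0.14 (Fech) and -1.88 ± 0.13 (Urod), with limma adjusted p from 1.89e-08 to 2.7e-07. Nfe2, a transcription factor that megakaryocytes also use, was the 1 gene of the list that rose in early spleen (0.53 ± 0.10, limma adjusted p = 0.00263) and in progression (0.55 ± 0.10, limma adjusted p = 0.00156). No gene of the list fell at either of these stages, and 1 of 26 called at each is a smaller share than that of all genes. In marrow 0 of 26 passed in each of the 3 states against wild type, with medians of -0.37 in proliferation, -0.86 in transition and -0.37 in senescence. Of all genes only 0.282%, 0.42% and 0.0484% were called in these states, so a count of 0 is near the background.

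**Figure D5:**
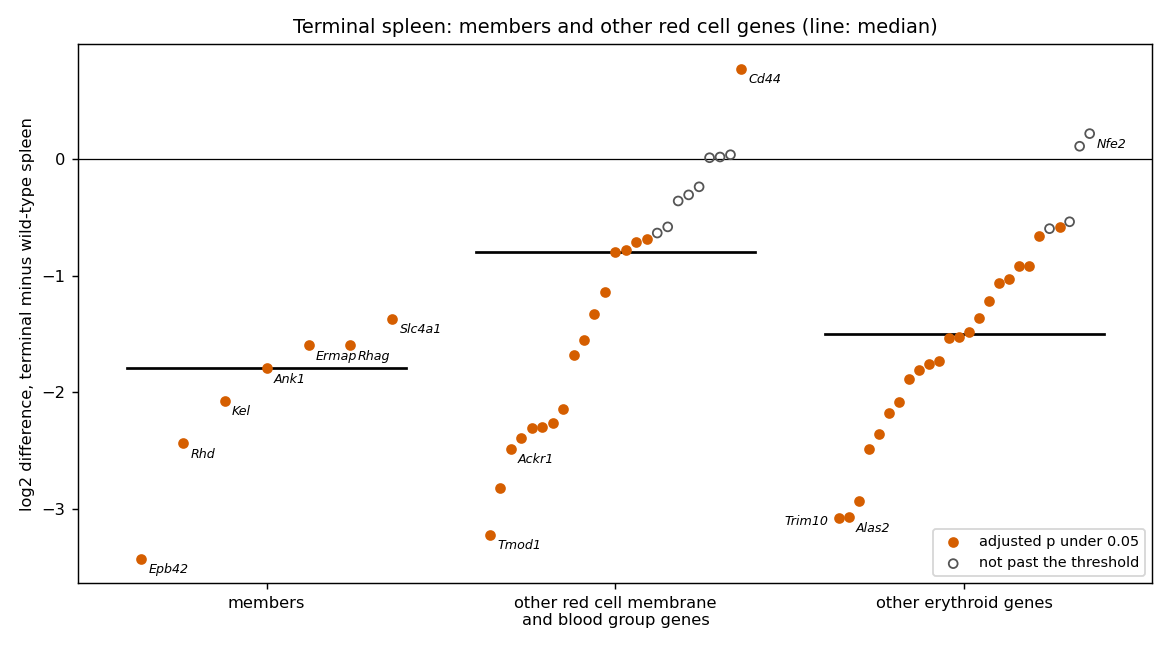
Log2 difference between terminal and wild-type spleen for each of the 7 genes, 25 other red cell membrane and blood group genes and 26 other erythroid genes, with filled points past the threshold and a line at each median. The 7 genes lie between -3.42 and -1.37, and the medians are -1.79, -0.80 and -1.50.

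Markers of other cells moved as well in terminal spleen, and their part in the results was not tested. All 5 measured B cell markers, 4 of 4 T cell markers and 6 of 6 macrophage markers were lower than wild type, and 2 of 5 megakaryocyte markers were. Of all genes, 16.3% were called lower and 18.1% higher there. Minus the wild-type mean, the list means of the 3 terminal arrays were -3.83 to -2.34 for B cells, -1.65 to -1.22 for T cells, -2.12 to -1.28 for macrophages and -2.06 to -1.05 for megakaryocytes. All 6 neutrophil markers were higher, with a list mean 1.38 to 1.66 above wild type. At the early stage, where none of the 7 genes passed, the neutrophil mean was already higher by 1.06 to 1.51, and 6 of 6 macrophage and 5 of 5 B cell markers were lower. Of all genes, 8.55% were called lower at that stage. Of 7 measured erythroid markers 6 were lower at the terminal stage. The seventh, Hba-a1, has a dim probe set here. In marrow, transition 4 had a megakaryocyte mean of -2.79 from wild type beside -3.10 for the 7 genes, and proliferation 1 had 1.04 beside -1.53. The Gapdh difference of transition 2, 3 and 4 was 1.18 to 1.36, against 1.57 to 1.83 in wild-type marrow. With it as a covariate the median transition difference of the 7 genes was -0.58.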

How the data were processed

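The values are the log2 probe set levels the authors deposited for 22690 probe sets on 29 arrays, for which the submitters' processing notes name RMA, affy and limma. Versions, background settings and filters are not given in the sources used here. The platform annotation gave 1 gene symbol for 20393 probe sets, several for 691 and none for 1606. Each of 12394 genes was represented by the brightest of its probe sets in a tissue, and dim genes were kept. Marrow and spleen were fitted separately, each with its 4 groups, by limma 3.58.1 (lmFit, eBayes) under R 4.3.3, with Benjamini-Hochberg adjustment over all genes and a threshold of 0.05. The contrast between tissues came from 1 fit over all arrays. Intervals are 95% intervals of the fit. Figures were drawn with matplotlib 3.10.9. The number of arrays limits the precision. The members and lists were chosen with earlier results of these data known.

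Named genes were the members, up to 4 genes with the smallest p per list and comparison, the 5 genes most correlated with the members' mean per tissue, and 1 per member. Sptb, Cd55, Slc2a1, Tmod3 and Nfe2 come under that rule, and Cd44 was named after its value was seen. Lists were given as counts and medians. Promoter windows are from RefSeq.

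The alternatives were a further quantile normalization, only the brighter genes (mean above the median gene), all probe sets of a gene averaged, the compared groups alone, a replicate block, the Gapdh 3′ minus 5′ difference as a covariate, each array left out, and, chosen after seeing the data, 2 marrow or 3 spleen arrays left out. The fit was tested on simulated data with 200 of 12394 genes changed. At a log2 change of 1 it recovered 78% of genes in transition against wild-type marrow and 76% in terminal against wild-type spleen. At a log2 change of 2 it recovered 94% and 98%. These rates are over the changed genes together and were not worked out for the members. In marrow the residual SD of the members was 0.71 for Slc4a1 to 1.14 for Kel, against 0.25 for the median gene. The marrow rates therefore do not show how often such a change would pass in the members.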

Additional observations from a re-analysis of the deposited data

Results flagged for a closer look

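The Rhd level of wild-type spleen 5, at 11.98, lay far from the other 4 wild-type spleens, of which the nearest was at 12.31 and the highest at 12.41. Its gap to the nearest, divided by the range of the group, was 0.778, against a critical value of 0.71. In all 28 groups of 4 or 5 arrays were examined in this way, and chance alone flags about 1 in 20. Without this array Rhd was at -2.51 ± 0.19 in terminal against wild-type spleen (limma adjusted p = 2.13e-06), beside -2.43 with it. The same array had a mean of 8.01 over the pancreas acinar markers. Wild-type spleen 3 had 12.5 there and the highest Rhd level of the wild-type spleens, and a link between the 2 was not tested. Wild-type spleen 5 was also the lowest wild type for Slc4a1, Ank1, Kel and Ermap, but not for Epb42 and Rhag.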

How the results depend on the processing

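The 7 falls at the terminal stage against wild type passed under every alternative run. Against the early stage and progression the count of members by leave-one-out stayed at 7, and Ermap was lost with the compared groups alone (adjusted p 0.0577 and 0.0814) and, against progression, under the replicate block (0.0583) and without the 3 spleen arrays with pancreas signal (0.0512). In early spleen 1 member passed with the mean of all probe sets (Ank1, 0.65) and 1 with the compared groups alone (Slc4a1). In progression 1 passed with the mean of all probe sets (Slc4a1, -0.63). Leaving out single arrays gave 0 to 1 members at both stages, and 5 to 7 for the mean of the stages, where 3 passed without the 3 spleen arrays, and where the Gapdh covariate added Ank1 (adjusted p 0.038) and Ermap (0.0157) and the brighter genes alone added Ermap (0.0399). The cause was not tested. The labels do not link arrays by replicate number. Same-numbered arrays had correlations of their deviations of -0.43 to 0.55 (marrow) and -0.32 to 0.23 (spleen). The means were 0.054 and -0.0048, beside -0.014 and 0.00029 for arrays of other numbers. Whether the numbers mark a pairing cannot be settled by these values. A replicate block changed no other member's call, and all genes called became 825 at the early stage (1971 without the block), 1111 in progression (2386), 352 in terminal against early (819) and 302 in terminal against progression (726). Of the arrays, 2 of 15 in marrow and 4 of 14 in spleen correlated best with their own number.

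The counts of all genes called moved by over 1.5 times in other ways too. With the compared groups alone they were 125 in proliferation (35 in the full fit), 33 in transition (52), 251 in terminal against early and 268 against progression. Without the 3 spleen arrays they were 643 at the early stage, 1097 in progression, 2120 for the mean of the stages (4023), 250 and 302 for terminal against early and progression, and 919 for the tissue contrast (1730). Under the block they were 18, 33, 45 (82), 2276 and 930 for proliferation, transition, the mean of the states, the mean of the stages and the tissue contrast. With the Gapdh covariate they were 54, 19, 46, 419 and 1095 for proliferation, transition, the mean of the states and terminal against early and progression. Over genes above the median level (6197) they were 8, 14, 1 (6) and 38 in proliferation, transition, senescence and the mean of the states. Without the 2 marrow arrays they were 15 in proliferation, 31 in transition and 1 (0) in senescence against transition. Leave-one-out gave 21 to 664 in transition and 22 to 650 for the mean of the states, each lowest without wild-type marrow 3 and highest without transition 1. It gave 12 to 73 in proliferation (without wild-type marrow 3 or 2, respectively) and 4 to 31 in senescence (without senescence 1 or wild-type marrow 2). In spleen it gave 1300 to 3712 in progression (without progression 2 or 3), 0 to 382 for progression against early (highest without progression 3), 314 to 2157 for terminal against early (without early 2 or 3) and 310 to 1911 for terminal against progression (without progression 1 or 3).

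Signs turned only among differences that did not pass. Without proliferation 1 and transition 4, Rhag was at 0.21 and Ermap at 0.0053 in proliferation against wild type, and Ank1 at -0.22, Rhag at -0.074, Kel at -0.15 and Ermap at -0.12 in senescence against transition, where the Gapdh covariate gave Ank1 -0.13. A further quantile normalization gave Epb42 0.070, Slc4a1 0.055 and Rhd 0.0074 in senescence against proliferation. In progression against wild type Ank1 was at -0.030 with the mean of all probe sets, -0.080 under the replicate block and -0.057 without the 3 spleen arrays, and Kel at -0.016 under the block. The tissue contrast was 0.043 for Rhd with quantile normalization, -0.31 for Slc4a1 with the mean of all probe sets, and for Ank1 -0.0039 under the block and -0.010 without the 3 spleen arrays. With the Gapdh covariate it was -0.092 for Slc4a1, -0.22 for Ank1, -0.29 for Rhag, -0.16 for Kel and -0.15 for Ermap, and without the 2 marrow arrays -0.16, -0.17, -0.39, -0.18 and -0.21.

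Leaving out single arrays turned these signs, each given as its range. In the tissue contrast the ranges were Ank1 -0.14 to 0.32, Ermap -0.11 to 0.42, Kel -0.068 to 0.48, Rhag -0.20 to 0.38, Rhd -0.28 to 0.32, Slc4a1 -0.077 to 0.30. In progression against wild type they were Ank1 -0.11 to 0.21, Kel -0.035 to 0.22, Slc4a1 -0.14 to 0.056. In senescence against transition they were Ank1 -0.22 to 0.70, Ermap -0.12 to 1.03, Kel -0.15 to 1.25, Rhag -0.074 to 1.05. In transition against proliferation it was Ank1 -0.90 to 0.010. In progression against early it was Epb42 -0.29 to 0.030. In senescence against proliferation they were Epb42 -0.44 to 0.22, Ermap -0.54 to 0.070, Kel -0.49 to 0.13, Rhag -0.72 to 0.10, Rhd -0.51 to 0.31, Slc4a1 -0.25 to 0.19. In proliferation against wild type they were Ermap -0.60 to 0.0053, Rhag -0.70 to 0.21. In early against wild type it was Rhag -0.11 to 0.30.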

Other observations

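All 12 probe sets of the 7 genes were lower in terminal than in wild-type spleen (adjusted p by limma over 22690 probe sets at most 0.0108), from -0.44 ± 0.12 for a dim probe set of Ank1 to -3.42 ± 0.20 for the main one of Epb42. At the other stages a dim probe set departed from the main one in 2 cases. That of Ank1 was higher at the early stage, at 5.76 to 6.12 against 4.74 to 4.93 in wild type (1.07 ± 0.12, limma adjusted p = 0.000139), while the main probe set of Ank1 was at 0.32 ± 0.26. In progression both were near wild type, at 0.05 ± 0.12 and 0.01 ± 0.26. The other probe set of Ank1, of middle brightness, was at 0.56 ± 0.19 (limma adjusted p = 0.0641). The dim probe set of Slc4a1 was lower in progression (-1.87 ± 0.51, limma adjusted p = 0.0247), at 4.18, 4.19 and 6.02 against 6.15 to 7.21 in wild type, while the main probe set of Slc4a1 was at -0.06 ± 0.11 and the other bright one at 0.02 ± 0.10. The levels of 4.18 and 4.19 lay below the lower quartile of every spleen array (4.56 to 4.81). At the early stage the dim probe set was at 0.30 ± 0.51, beside 0.28 ± 0.11 for the main one. Which transcripts these probe sets read is not given in the sources used here.

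In the list of other red cell membrane and blood group genes, the fusion effect differed between spleen and marrow for 4 of 25 genes. That is 16% of the list beside 14% of all genes, so the count is near the background. These genes were Slc2a1 (-1.24 ± 0.30), Tmod3 (-0.73 ± 0.19), Cd55 (-1.15 ± 0.31) and Add3 (-0.67 ± 0.21), with limma adjusted p from 0.0059 to 0.0335. Each was lower in the spleen effect than in the marrow effect.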
